A study of Mus musculus with 6 samples.

Results

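Cytosolic ribosomal protein genes encode the proteins of the 40S and 60S subunits that make up the ribosome of the cytoplasm. They were taken as the rows of the gene table whose symbol began with Rpl or Rps, with an optional p, followed by a number and at most 1 letter, which leaves out pseudogenes with a -ps suffix and the S6 kinases. This gave 79 of the 33924 gene rows, 31 for the 40S subunit and 48 for the 60S subunit, including the 3 proteins of the 60S stalk. The rule used no measured value.

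RNA was sequenced from LSK-derived leukaemias, started from LSK cells, the lineage-negative, Sca-1 and Kit positive fraction of bone marrow in which haematopoietic stem cells are found. They were compared with GMP-derived leukaemias, started from granulocyte-macrophage progenitors, a later stage that gives rise to myeloid cells alone. In both groups the cells carried the MLL-AF9 fusion oncogene, brought in by a retrovirus. The transformed cells had been expanded in culture and injected into lethally irradiated C57BL/6 mice together with wild-type support marrow. Leukaemia cells taken from the marrow of moribund animals were then kept in medium with stem cell factor, IL-3 and IL-6. Each group had 3 libraries, here called LSK 44, LSK 45 and LSK 46, and GMP 5, GMP 11 and GMP 19. It is not labelled whether the 3 libraries go back to different transductions or animals. The p-values therefore rest on the spread among these libraries, and that spread may be technical. No age, treatment or batch was given. The cells in the tube are leukaemia cells and not the LSK cells or progenitors themselves.

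The mRNAs of ribosomal proteins are among the most abundant of a growing cell, and cells keep their products close to equal numbers, since each ribosome holds a single copy of nearly every protein. Transcription of these genes is raised by MYC, and their translation is controlled by mTOR through a 5′ terminal oligopyrimidine tract, a cytosine followed by pyrimidines at the very start of the mRNA that LARP1 binds. Free Rpl5 and Rpl11, together with the 5S RNA, bind MDM2 and thereby stabilise p53. Inherited loss of a copy of several of these genes causes Diamond-Blackfan anaemia in humans, and blood cell formation is among the processes most sensitive to their dose.

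The bases around the start of the gene are shown for the members on which the results turn, since the control just described acts there. RefSeq entries on GRCm38.p6 were matched for 58 of the 79 members, while 21 had no entry. The windows hold the 20 bases before the annotated start and the first 10 bases from it, on the strand of the gene, with the longest run of pyrimidines in capitals. Of the 9 members that passed the test described further on, 6 had an entry, and they come first. They are followed by 3 members with log2 fold changes at or below 0.01, whose groups overlapped, and by Rpl39l, which was counted in a single library.
Rpl7a: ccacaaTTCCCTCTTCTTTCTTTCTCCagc
Rps3: gaacaCTTgcaagggtcgccgcgctgcgcg
Rpl14: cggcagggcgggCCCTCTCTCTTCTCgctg
Rpl6: gatcttggtcaCCTCCCgtcattgcttata
Rpl15: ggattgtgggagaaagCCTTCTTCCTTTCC
Rpl27: ccggaacgctctgTTCCTgtctgctgctcg
Rpl39: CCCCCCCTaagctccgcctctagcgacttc
Rpl13a: gataagaaaccctgcgacaagaCCTCCTCC
Rps23: acggggccttcggctgggcggggCTTCCCg
Rpl39l: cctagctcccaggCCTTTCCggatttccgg

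On GRCm38.p6 these windows lie at chr2:26910787-26910816 on the plus strand for Rpl7a, chr7:99483700-99483729 on the minus strand for Rps3, chr9:120571497-120571526 on the plus strand for Rpl14 and chr5:121204481-121204510 on the plus strand for Rpl6. Those of Rpl15 and Rpl27 lie at chr14:18270977-18271006 on the minus strand and chr11:101442225-101442254 on the plus strand. The window of Rpl39 is chrX:37085213-37085242 on the minus strand, that of Rpl13a chr7:45128736-45128765 on the minus strand, that of Rps23 chr13:90923102-90923131 on the plus strand, and that of Rpl39l chr16:10170208-10170237 on the plus strand. The counts themselves were made on mm9, and no coordinate was carried between the builds. The longest run was 21 bases in Rpl7a, 14 bases in Rpl14 and in Rpl15, and 3 bases in Rps3, so that long and short runs both occurred among the members that passed the test. Rpl39 and Rpl13a each had a run of 8 bases.

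Over all 58 members with an entry, 42 (72.4%) had a cytosine followed by at least 4 pyrimidines in this window on the strand of the gene, against 41.5% of 27025 genes with an entry. A gene with several entries was counted when any of them held the motif. In the whole entry of 300 bases, CGGAAG, the core bound by ETS factors such as GABP, was found on either strand in 67.2% of members and 18.8% of all genes. Its reverse complement, CTTCCG, holds a cytosine followed by 4 pyrimidines, so that both motifs can overlap. CCATNTT, the core bound by YY1, was found on either strand in 32.8% of members and 18.2% of all genes. TATAAA, searched on the strand of the gene, was found in 8.62% of members and 9.77% of all genes. These are matches of letters around annotated starts, not mapped mRNA ends or bound sites.

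As a whole, ribosomal protein mRNA made up a slightly larger part of the counts in the LSK-derived libraries. The 79 genes took 5.34%, 5.57% and 5.45% of all gene counts in LSK 44, LSK 45 and LSK 46, against 4.83%, 5.01% and 4.91% in GMP 5, GMP 11 and GMP 19. The lowest LSK-derived library lay above the highest GMP-derived one. The means were 5.45% ± 0.116 in LSK-derived and 4.92% ± 0.0877 in GMP-derived libraries (SD, n = 3 each), a difference of 0.536 percentage points or 1.11-fold. The 95% Wilson interval of a single share was narrow, for example from 5.328% to 5.350% in LSK 44 and from 4.822% to 4.839% in GMP 5, and covers counting error only. Without any 1 library the difference ran from 0.476 to 0.592 percentage points. In bulk RNA, a larger number of cells with much ribosomal protein mRNA and more of it per cell cannot be told apart.

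Both subunits took part to a like degree. The 40S genes held 2.31%, 2.41% and 2.34% of counts in the LSK-derived libraries, in the order of their numbers, against 2.06%, 2.15% and 2.11% in the GMP-derived libraries, and the ratio of the means was 1.12. The 60S genes held 3.03%, 3.16% and 3.11% in the LSK-derived libraries, against 2.77%, 2.85% and 2.80% in the GMP-derived libraries, with a ratio of 1.10. Neither subunit's groups overlapped. The ratio of 40S to 60S counts was 0.759 ± 0.00701 in LSK-derived and 0.750 ± 0.0062 in GMP-derived libraries (SD, n = 3 each), a difference of about the size of the spread, and its groups overlapped.

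The 3 genes of the 60S stalk, the arm that recruits elongation factors to the ribosome, did not separate the groups. Together they took 0.341%, 0.354% and 0.362% of counts in LSK 44, LSK 45 and LSK 46, against 0.285%, 0.349% and 0.349% in GMP 5, GMP 11 and GMP 19. GMP 5 stood apart from the other 5 libraries. The proteins of the mitochondrial ribosome, which translates the few mRNAs of the mitochondrial genome, held 0.420%, 0.376% and 0.399% of counts in the LSK-derived libraries and 0.397%, 0.412% and 0.369% in the GMP-derived libraries. Their groups overlapped, and the difference of 0.00561 percentage points was smaller than the spread and changed sign without LSK 44 or GMP 19.

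**Figure D1:**
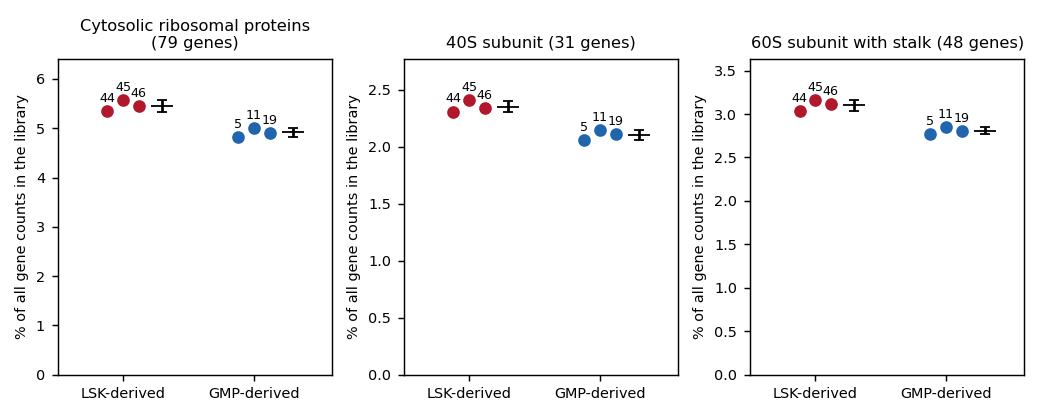
Percent of all gene counts of a library that fell on the cytosolic ribosomal protein genes (79 genes, left), on those of the 40S subunit (31 genes, middle) and on those of the 60S subunit with its stalk (48 genes, right). Points are single libraries with their numbers, bars give the mean and SD of 3 libraries, and all axes start at 0. The LSK-derived libraries lie between 5.34% and 5.57% for all members and the GMP-derived libraries between 4.83% and 5.01%.

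Gene by gene the difference was small and nearly uniform in sign. Of the 79 members, 77 had enough counts for edgeR's quasi-likelihood test, which was run over 13406 genes with Benjamini-Hochberg adjustment. Of these 77, 9 were higher in LSK-derived libraries at an adjusted p below 0.05, which is 11.7%, while 11.8% of all tested genes were higher. None of the 77 was lower, where 13.9% of all tested genes were lower, and none was lower by DESeq2. By the adjusted p, the share of members that rose was thus close to the share over all genes. At an unadjusted p below 0.05, 33 of the 77 were higher and none lower, where 18.6% of all tested genes were higher and 20.7% lower. The fitted log2 fold change was above 0 for 73 of the 77 (94.8%), against 51.4% of all tested genes. The median log2 fold change was 0.15 (1.11-fold) over the members and 0.01 over all tested genes. The libraries of the groups did not overlap for 46 members, or 59.7%, all with the LSK-derived libraries above, while 22.5% of all tested genes had that order and 22.8% the opposite one. No member had the opposite order.

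The count of members that rose moved with single libraries and with the test, while the median stayed above 0. It was 0 without LSK 44, 3 without LSK 45 and 1 without LSK 46, where 6.25%, 9.68% and 5.62% of all tested genes were higher. It was 6 without GMP 5, 5 without GMP 11 and 5 without GMP 19, where 11.1%, 7.84% and 7.89% of all tested genes were higher. In these fits the median log2 fold change of the members stayed between 0.13 and 0.17, and between 69 and 73 of them had a fold change above 0. The Wald test of DESeq2 called 28 members higher and none lower, where it called 14.4% of all genes higher and 16.6% lower. A test against a minimum fold of 1.2 called no member, and 6.18% of all genes higher.

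By role, 2 of 31 genes of the 40S subunit (6.45%) rose, with a median log2 fold change of 0.17, and the LSK-derived libraries lay above the others for 20 (64.5%). Of 43 tested genes of the 60S subunit outside the stalk, 7 (16.3%) rose, with a median of 0.15, and the LSK-derived libraries lay above for 25 (58.1%). Over all tested genes 11.8% rose and 22.5% had that order, so the share that rose was below the background for the 40S and somewhat above it for the 60S genes, and the subunits were not tested against each other. None of the 3 stalk genes passed the test, at log2 fold changes of 0.11 for Rplp0, 0.08 for Rplp1 and 0.12 for Rplp2. The sign for Rplp1 and Rplp2 turned without GMP 5, at log2 fold changes of -0.07 and -0.04.

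**Figure D2:**
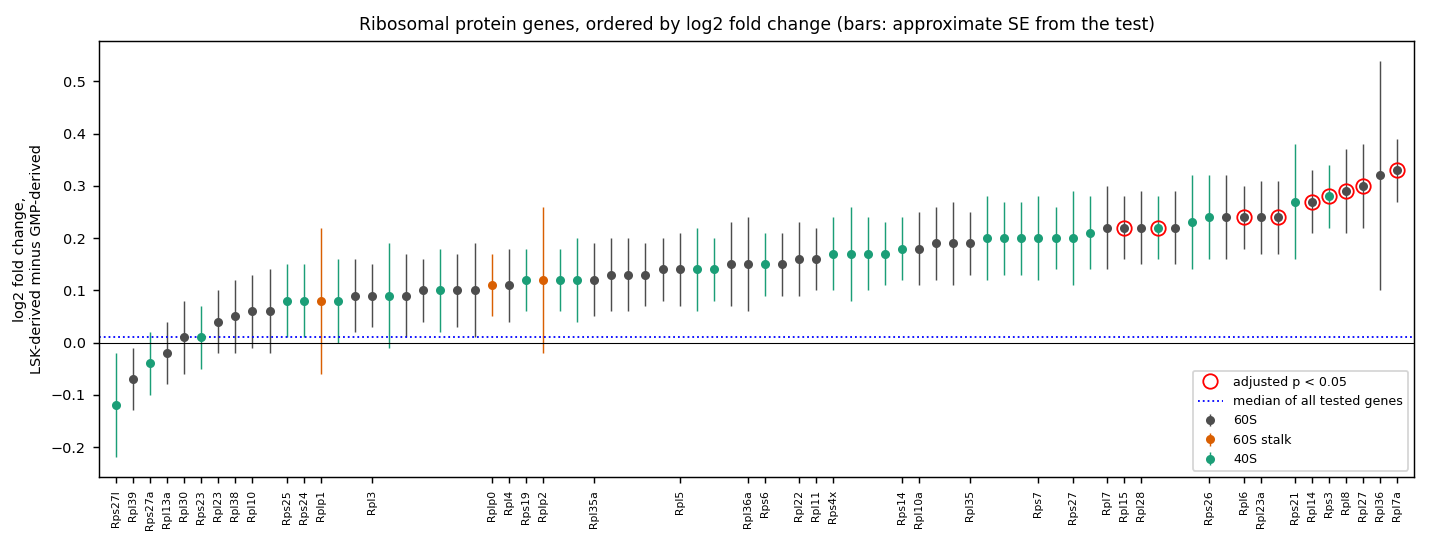
Log2 fold change, LSK-derived minus GMP-derived, of the 76 members above 5 CPM, in increasing order. Bars are the approximate SE from the test, colours mark the subunit, names are given for members described in the text, red rings mark the 9 members with an adjusted p below 0.05 and the dotted line is the median of all tested genes at 0.01. The points run from -0.12 for Rps27l to 0.33 for Rpl7a, and 4 lie below 0.

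Among the 9 members that rose were Rpl7a, Rps3, Rpl14, Rpl6, Rpl15, Rpl27 and Rpl8. All of these but Rps3 were chosen after their values were seen. Rpl7a, a protein of the 60S subunit, had 1013, 948 and 988 CPM in the libraries LSK 44, LSK 45 and LSK 46, against 797, 807 and 746 CPM in GMP 5, GMP 11 and GMP 19. CPM, the unit used throughout, are the counts of a gene per 1e6 counts of tested genes in the library after TMM scaling. Its log2 fold change of 0.33 ± 0.06 (approximate SE) was the largest of the members above 5 CPM, with an adjusted p of 0.0116. Rps3, which lies where mRNA enters the 40S subunit, had 1650, 1729 and 1599 CPM in the LSK-derived libraries, against 1371, 1393 and 1340 CPM in the GMP-derived libraries, a log2 fold change of 0.28 ± 0.06 and an adjusted p of 0.0163. For both genes a gap wider than either group's range separated the groups. Rps3 passed the test in 5 of the 6 fits that left out a library and missed it without LSK 44, at an adjusted p of 0.0589. Rpl7a passed in 4 and missed without LSK 44 or LSK 46, with a highest adjusted p of 0.0523.

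Rpl15, whose loss in humans causes Diamond-Blackfan anaemia, was even within both groups. It had 381, 387 and 382 CPM in the LSK-derived libraries, against 330, 332 and 324 CPM in the GMP-derived libraries, a log2 fold change of 0.22 ± 0.06 with an adjusted p of 0.0272. In the reference annotation Nkiras1 overlaps it on the opposite strand, with 1015 counts over all libraries where Rpl15 had 55631. Rpl27 was as even in the LSK-derived libraries and not in the others, with 207, 208 and 206 CPM, against 152, 186 and 168 CPM in GMP 5, GMP 11 and GMP 19. Its log2 fold change was 0.30 ± 0.08 with an adjusted p of 0.0404. Rpl8, which reaches close to the peptidyl transferase centre, had 1332, 1313 and 1402 CPM in the LSK-derived libraries, against 999, 1197 and 1123 CPM in the GMP-derived libraries. There GMP 5 was the lowest library and the log2 fold change was 0.29 ± 0.08, with an adjusted p of 0.0411.

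Rpl14 and Rpl6, also proteins of the 60S subunit, were among the members that rose. Rpl14 averaged 836 ± 27.8 CPM in LSK-derived leukaemias and 693 ± 33.1 CPM in GMP-derived leukaemias (SD, n = 3 each), with a log2 fold change of 0.27 and an adjusted p of 0.0232. Rpl6 averaged 900 ± 12.8 CPM and 762 ± 27.4 CPM in the same order, with a log2 fold change of 0.24 and an adjusted p of 0.0257. Rpl6 passed the test in none of the 6 fits that left out a library, Rpl8, Rpl15 and Rpl27 in 1 each, and Rpl14 in 3. Among the members just outside the threshold were Rpl28 at an adjusted p of 0.0501 and Rpl23a at 0.0537, with log2 fold changes of 0.22 and 0.24. Ube2s overlaps Rpl28 on the opposite strand in the reference annotation, with 9559 counts where Rpl28 had 100039.

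**Figure D3:**
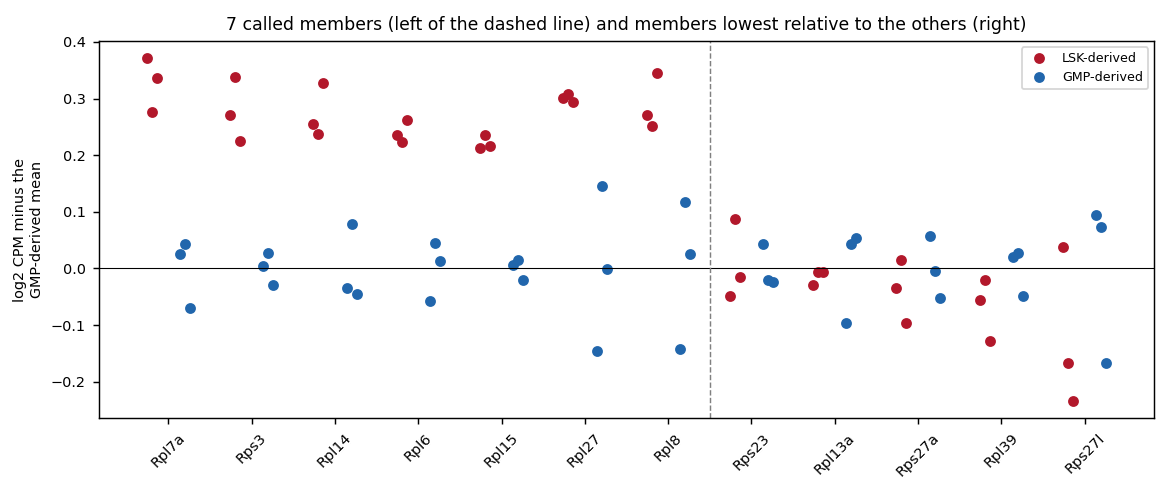
Log2 CPM of single libraries minus the mean of the GMP-derived libraries, for 7 members that passed the test (left of the dashed line) and for 5 members among the lowest relative to the other members (right). Points are libraries, LSK-derived in red and GMP-derived in blue. For these 7 members the groups are apart, and for Rps23, Rpl13a, Rps27a, Rpl39 and Rps27l they overlap.

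Of the 5 most abundant members, Rps3, described above, passed the test and the other 4 did not. Rpl4, which lines the exit tunnel for the new protein, had the highest counts of all members, with 2884, 2922 and 2832 CPM in the LSK-derived libraries, against 2871, 2637 and 2503 CPM in the GMP-derived libraries. GMP 5 lay among the LSK-derived libraries, and the log2 fold change of 0.11 had an adjusted p of 0.283. Rplp0, the base of the stalk, averaged 2036 ± 34.3 CPM in LSK-derived leukaemias and 1882 ± 101 CPM in GMP-derived leukaemias (SD, n = 3 each; adjusted p = 0.227). Rps4x, a 40S protein encoded on the X chromosome, averaged 1588 ± 59.4 CPM and 1407 ± 87.6 CPM in the same order, and Rpl7 1533 ± 46.5 CPM and 1314 ± 112 CPM. Their libraries did not overlap, yet their adjusted p-values were 0.109 and 0.0761.

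Levels among the 76 members above 5 CPM ran from 120 to 2775 CPM as means over all libraries. Per kilobase of coding sequence they spanned 8.93-fold. In LSK-derived libraries the level per kilobase of coding sequence was highest for the stalk gene Rplp1, at 2987 CPM per kilobase, and lowest for Rpl35, at 346. In GMP-derived libraries the same genes stood at 2822 and 304 CPM per kilobase. Arpc5l, which overlaps Rpl35 on the opposite strand in the reference annotation, had 10884 counts where Rpl35 had 18827, and without a known strand setting the reads of such pairs cannot be told apart. The order of the members' CPM was nearly the same in both groups, with a Spearman correlation of 0.994 across the 76 genes, which are not independent replicates. Among libraries of the same group, the SD of a member's log2 CPM had a median of 0.0539 for the LSK-derived and 0.0794 for the GMP-derived leukaemias.

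A few members had a level at or below that of the GMP-derived libraries. Rps27l, a paralogue of Rps27 whose gene is a p53 target, had 203, 176 and 168 CPM in the LSK-derived libraries, against 211, 208 and 176 CPM in the GMP-derived libraries, a log2 fold change of -0.12 ± 0.10 with an adjusted p of 0.425. Its groups overlapped. Rps27 itself averaged 441 ± 35.2 CPM in LSK-derived leukaemias and 384 ± 35.4 CPM in GMP-derived leukaemias (SD, n = 3 each), with a log2 fold change of 0.20 and an adjusted p of 0.159. Rpl39, which lies in the wall of the exit tunnel, had 203, 208 and 193 CPM in the LSK-derived libraries, against 214, 215 and 204 CPM in the GMP-derived libraries, with a log2 fold change of -0.07 and an adjusted p of 0.478. Rps27a, which is made as a fusion with ubiquitin, averaged 716 ± 27.8 CPM in LSK-derived leukaemias and 735 ± 27.9 CPM in GMP-derived leukaemias, with a log2 fold change of -0.04. Rpl13a, known in human monocytes as a translational silencer when released from the ribosome, averaged 1316 ± 11.8 CPM and 1331 ± 76.4 CPM in the same order. Its log2 fold change of -0.02 was 0.01 with upper-quartile scaling. Rps23, a protein of the decoding centre, and Rpl30 both had a log2 fold change of 0.01.

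To ask which members departed from the others, the test was repeated with the libraries scaled on the members alone. None of the 77 then had an edgeR adjusted p below 0.05, and 12 had an unadjusted p below 0.05. The lowest adjusted p was 0.0515, for Rpl39 and for Rps27a, at log2 fold changes relative to the members of -0.21 ± 0.05 and -0.19 ± 0.05. Rpl7a had 0.18 ± 0.05 with an adjusted p of 0.0611. This outcome hung on GMP 5. Without it, in a repeat added after the data had been seen, 11 members passed. The 6 that were higher relative to the other members were Rpl7a at 0.21, Rps3 and Rpl7 at 0.15, Rps27 at 0.14, Rpl14 at 0.12 and Rps4x at 0.09. The 5 that were lower were Rpl13a and the stalk gene Rplp1 at -0.20, Rpl39 at -0.19, the stalk gene Rplp2 at -0.16 and Rps27a at -0.14. Without LSK 44, 1 member passed, and without any other library none did.

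GMP 5 was also the library in which single members lay furthest from their group. It held the lowest value of its group for 40 of the 76 members above 5 CPM, while LSK 44 and LSK 46 did so in theirs for 36 and 35. The widest departure in GMP 5 was Rpl36, a small 60S protein, with 124 CPM, against 223 and 211 CPM in GMP 11 and GMP 19. The LSK-derived libraries had 218, 221 and 257 CPM of Rpl36, and its log2 fold change of 0.32 ± 0.22 had an adjusted p of 0.338. Rplp1 and Rplp2 behaved alike, with 755 and 335 CPM in GMP 5, against at least 977 and 439 CPM in the other 5 libraries. Rps21, a small 40S protein, had 351, 360 and 366 CPM in the LSK-derived libraries, against 247, 335 and 309 CPM in GMP 5, GMP 11 and GMP 19.

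These departures moved with base composition. Across the 76 members, the difference of a library from the mean of the other 2 libraries of its group correlated with the GC content of the transcript at r = -0.53 in GMP 5, 0.51 in GMP 11 and 0.43 in GMP 19. In the LSK-derived libraries r was -0.25 for LSK 44, -0.40 for LSK 45 and 0.52 for LSK 46. The 3 values of a group are not independent, since each library enters the mean of the others. The log2 fold change between the groups correlated with GC content at r = 0.30 and with log2 transcript length at r = 0.05 across the same genes, which share libraries and depth. With an offset for length and GC content fitted to each library, 19 members were called higher, the 9 above among them, against 13.6% of all genes, and the median stayed at 0.15. The part of GC content in the single differences was not tested further.

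**Figure D4:**
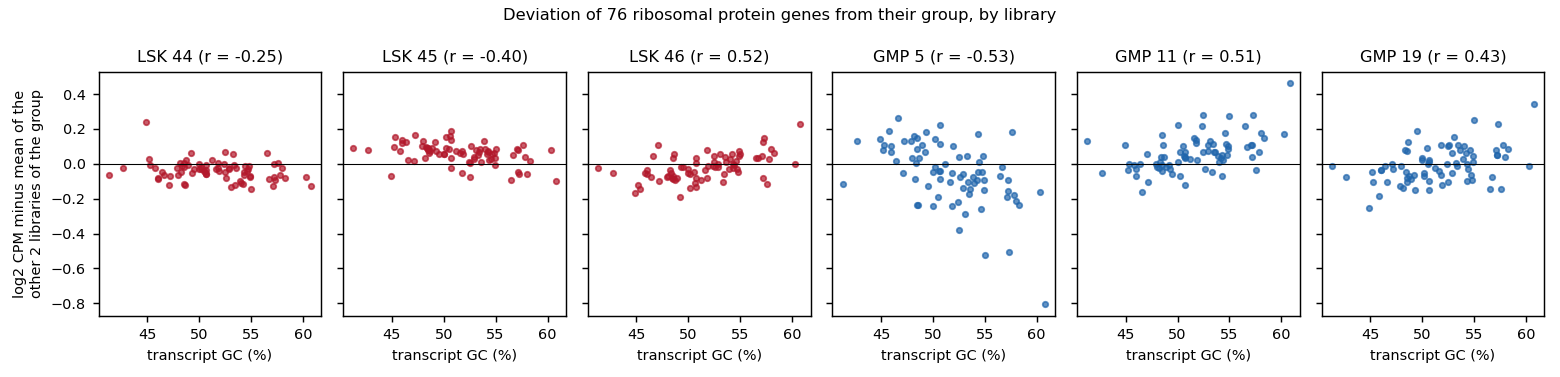
Log2 CPM of each of 76 members in a library minus the mean of the other 2 libraries of its group (vertical axis), against the GC content of the transcript in percent (horizontal axis), with 1 panel per library. The members fall with GC content in GMP 5 (r = -0.53) and rise with it in GMP 11 (r = 0.51), and the lowest point, at -0.81, is Rpl36 in GMP 5.

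Other members known from human blood disease, taken by name, had small positive differences and did not pass the test. Rps19, the gene most often affected in Diamond-Blackfan anaemia, averaged 636 ± 23.8 CPM in LSK-derived leukaemias and 584 ± 21.8 CPM in GMP-derived leukaemias (SD, n = 3 each), with a log2 fold change of 0.12 and an adjusted p of 0.196. Rps14, whose loss contributes to a myelodysplastic syndrome in humans, averaged 796 ± 20.9 CPM and 700 ± 26 CPM in the same order, with a log2 fold change of 0.18 and an adjusted p of 0.0636. Rps26, another of the anaemia genes, had the largest difference of these, with a log2 fold change of 0.24 and an adjusted p of 0.0769. Rps7, Rps24 and Rpl35a, also affected in that anaemia, had log2 fold changes of 0.20, 0.08 and 0.12, with adjusted p-values between 0.0955 and 0.416. Rpl22 and Rpl10, which are mutated in human T cell leukaemia, had log2 fold changes of 0.16 and 0.06. The p-values above the threshold do not show that these genes were equal.

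Rpl5 and Rpl11, which bind MDM2, had differences of like size. Rpl5 averaged 542 ± 17.7 CPM in LSK-derived leukaemias and 491 ± 26.6 CPM in GMP-derived leukaemias, and Rpl11 585 ± 7.64 CPM and 525 ± 23.4 CPM in the same order (SD, n = 3 each). Their libraries did not overlap, and their adjusted p-values were 0.161 and 0.103. Rps6, the target of the S6 kinases, averaged 538 ± 12.1 CPM in LSK-derived leukaemias and 484 ± 9.03 CPM in GMP-derived leukaemias, with an adjusted p of 0.0910. Of the members studied for effects on chosen mRNAs, Rpl10a had a log2 fold change of 0.18, Rps25 of 0.08, Rpl23 of 0.04 and Rpl38, needed in mice for translation of Hox mRNAs, of 0.05, and none passed the test.

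Paralogues known from single tissues were at or near the limit of counting. Rpl3l, the striated muscle paralogue of Rpl3, had 0.665, 1.22 and 1.08 CPM in the LSK-derived libraries, against 0.779, 0.564 and 0.762 CPM in the GMP-derived libraries, with an adjusted p of 0.268. Rpl10l, a testis paralogue of Rpl10, had 3 counts in all, 2 in LSK 45 and 1 in GMP 11. Rpl39l, a paralogue of Rpl39 best known from male germ cells, had 194 counts in GMP 11, which is 5.76 CPM with an exact Poisson interval from 4.98 to 6.63, and 0 counts in the other 5 libraries. A count of 0 allows up to 3 counts, or 0.180 CPM in the smallest library. This is a difference between libraries of the same group and not one between the groups. Rpl36a, encoded on the X chromosome, averaged 333 ± 9.18 CPM in LSK-derived leukaemias and 300 ± 32.7 CPM in GMP-derived leukaemias (SD, n = 3 each; adjusted p = 0.244).

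Ribosomal proteins whose symbols lie outside the pattern were examined beside the members. None of the 7 passed the test, and their median log2 fold change was 0.02. At an unadjusted p below 0.05, 1 of them was higher and none lower, where 18.6% of all tested genes were higher and 20.7% lower. Gnb2l1, the older symbol of Rack1, a scaffold on the 40S subunit, averaged 1861 ± 40.1 CPM in LSK-derived leukaemias and 1658 ± 57.6 CPM in GMP-derived leukaemias, and Rpsa 1689 ± 8.23 CPM and 1586 ± 61.6 CPM in the same order (SD, n = 3 each). Their libraries did not overlap, with adjusted p-values of 0.0763 and 0.289. Fau, made as a fusion with a ubiquitin-like protein, averaged 354 ± 21.5 CPM in LSK-derived leukaemias and 363 ± 55 CPM in GMP-derived leukaemias. The paralogues Rpl7l1, Rpl22l1 and Rpl36al had log2 fold changes of 0.02, -0.06 and -0.09. The sign turned when single libraries were left out for Fau, Rpl7l1 and Rpl22l1.

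Genes that work with the ribosome were counted in the same fit. The elongation list holds the factors and also Eef2k, the kinase that inhibits eEF2, and Eef1e1, a protein of the tRNA synthetase complex. Of its 8 tested genes 4 rose, all of them factors, and none fell, where 11.8% of all tested genes were higher, and all 8 had a fold change above 0, with a median log2 fold change of 0.29. Eef1g, a subunit of the complex that reloads eEF1A with GTP, had 852, 794 and 865 CPM in the LSK-derived libraries, against 648, 626 and 543 CPM in the GMP-derived libraries, a log2 fold change of 0.47 ± 0.08 and an adjusted p of 0.00951. Its partners Eef1d and Eef1b2 rose by 0.39 and 0.28 on the log2 scale, and Eif5a, which relieves stalls in elongation, by 0.29. Eef1a1 and Eef2, the factors that bring in the tRNA and move the ribosome, had log2 fold changes of 0.22 and 0.23 with adjusted p-values of 0.0898 and 0.0832. Of 35 initiation factor genes none rose and 1 fell, Eif4g3, at a log2 fold change of -0.59 and an adjusted p of 0.00821. At an unadjusted p below 0.05, 6 of the 35 were higher, where 18.6% of all tested genes were higher. The median over the list was 0.11.

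Of 13 other mRNAs reported to carry a terminal pyrimidine tract, 11 had a fold change above 0, and the difference from the members in this was not tested. In this list 2 genes (15.4%) rose, Nap1l1 at a log2 fold change of 0.48 and Pabpc1, the poly(A)-binding protein, at 0.26. Vim fell at -0.62, and over all tested genes 11.8% were higher and 13.9% lower. The median over the list was 0.16. Vim, the intermediate filament vimentin, averaged 338 ± 41.6 CPM in LSK-derived leukaemias and 519 ± 101 CPM in GMP-derived leukaemias (SD, n = 3 each; adjusted p = 0.0274).

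Among 24 genes of the factors that control ribosomal protein mRNA, 3 rose (12.5%) and 3 fell. Over all tested genes 11.8% were higher and 13.9% lower, so the share that rose was close to that over all genes. Myc had 305, 324 and 323 CPM in the LSK-derived libraries, against 188, 192 and 155 CPM in the GMP-derived libraries, a log2 fold change of 0.83 ± 0.09 and an adjusted p of 0.00191. Deptor, an inhibitor that binds mTOR, averaged 66.6 ± 7.24 CPM in LSK-derived leukaemias and 14.6 ± 4.27 CPM in GMP-derived leukaemias (SD, n = 3 each), with a log2 fold change of 2.18. Mycn, the third to rise, had 3.93, 0.471 and 12.9 CPM in the LSK-derived libraries and 0 counts in each GMP-derived library. Taf1, Tsc2 and Eif4ebp2 fell, at log2 fold changes of -0.33, -0.28 and -0.22. Tsc2 is a brake on mTOR and Eif4ebp2 a repressor of translation that mTOR inactivates. Larp1, Mtor, Gabpa and Yy1 had log2 fold changes of 0.17, 0.08, -0.07 and 0.01 and did not pass the test.

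The lists for ribosome production are read against 11.8% of all tested genes higher and 13.9% lower, and the lists were not tested against each other. For the synthesis of ribosomal RNA, 4 of 17 (23.5%) rose and none fell, namely Polr1a and Polr1b, the catalytic core of RNA polymerase I, at log2 fold changes of 0.40 and 0.49, and the shared polymerase subunits Polr2e and Polr2f at 0.48 and 0.44. For chaperones and export factors of the subunits, 3 of 26 rose and none fell, and the share of 11.5% was close to that over all genes. They were Sbds, which frees the new 60S subunit from eIF6, at 0.31, Heatr3, which imports Rpl5 and Rpl11, at 0.38, and Nop16 at 0.36. For the surveillance that runs from the 5S particle to p53, 1 of 9 (11.1%) rose, Trp53 at 0.30, and 1 fell, the p53 target Cdkn1a at -0.62. Mdm2 had a log2 fold change of -0.12 with an adjusted p of 0.238.

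Of 15 genes for rescue and quality control of stalled ribosomes, 2 rose (13.3%) and 2 fell. Over all tested genes 11.8% were higher and 13.9% lower. Pelo, the factor that splits stalled ribosomes, was at a log2 fold change of 0.41 and Gcn1l1, a sensor of colliding ribosomes, at 0.36. Trip4 was at -0.44 and Eif2ak4, the kinase GCN2, at -0.35. Of 75 mitochondrial ribosomal protein genes, 3 rose (4%), Mrpl52, Mrps10 and Mrps31, and 2 fell, Mrpl41 and Mrpl17. The median log2 fold change over that list was 0.04. Of 20 cell cycle genes, Cdk1 rose at 0.27 and Mki67 fell at -0.36. Their median was 0.07. Of the genes that passed in these lists, Eef1g, Eif4g3, Deptor, Myc, Polr2e, Pelo and Trip4 passed the test in each of the 6 fits that left out a library. Taf1 and Cdkn1a missed it without LSK 44 alone, and Sbds, Trp53 and Mrpl52 without LSK 46 alone. Polr1a, Polr1b, Vim, Mki67 and Mrps10 passed in 4 of the 6 fits, and Eef1d, Nap1l1, Heatr3, Cdk1, Polr2f, Gcn1l1, Mrps31 and Mrpl41 in 2. Eef1b2, Eif5a, Pabpc1, Mycn, Tsc2, Eif4ebp2, Nop16 and Eif2ak4 passed in 1, and Mrpl17 in none.

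**Figure D5:**
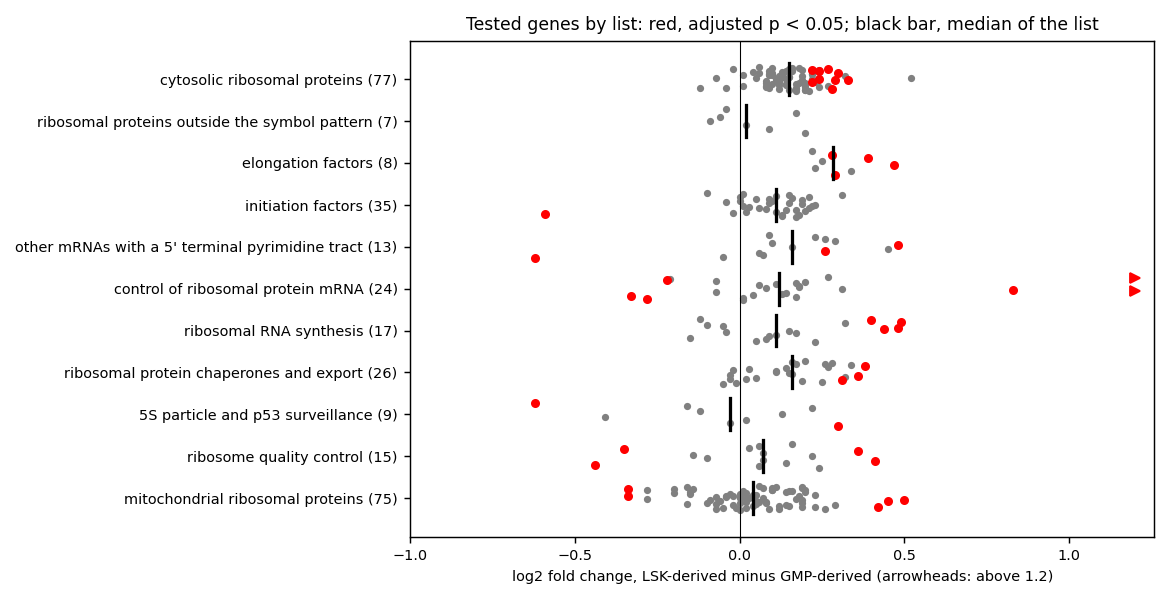
Log2 fold change, LSK-derived minus GMP-derived, of the tested genes of each list, with the number of genes in parentheses. Points are genes, red where the adjusted p was below 0.05, black bars are medians, and arrowheads mark 2 genes beyond the axis, Deptor and Mycn. The median is 0.15 for the cytosolic ribosomal proteins, 0.29 for the elongation list and 0.04 for the mitochondrial ribosomal proteins.

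The table also had 155 rows of ribosomal protein pseudogenes with a -ps suffix, near copies whose reads may be shared with the members. Of the 79 members, 50 had such a row, and pseudogenes under other symbols were not sought. The pseudogene rows took 0.0446%, 0.0480% and 0.0482% of counts in the LSK-derived libraries, against 0.0428%, 0.0429% and 0.0417% in the GMP-derived libraries. None of the 67 tested pseudogene rows passed the test, and their median log2 fold change was 0.11. At an unadjusted p below 0.05, 4 of the 67 were higher and none lower, where 18.6% of all tested genes were higher and 20.7% lower. Of the 27 tested members without a pseudogene row, 4 rose, where 11.8% of all tested genes were higher, and the median was 0.17. How reads with several matches were counted is not given in the sources used here.

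Markers of other cell types were not alike in the groups. For erythroid, T and NK and B cell markers the sums in the LSK-derived libraries lay above those in the GMP-derived libraries. For macrophage and stromal markers the sums overlapped. Single markers did not all follow the sums. Of 3 tested B cell markers 1 rose and 1 fell, with log2 fold changes from -3.81 to 1.72. Of 2 tested T and NK markers 1 rose, and the other was at -0.84. Of 2 tested erythroid markers 1 rose and none fell. Of 4 tested macrophage markers 1 rose and 1 fell, and of 3 tested stromal markers none rose and 1 fell. Over all tested genes 11.8% were higher and 13.9% lower. Erythroid markers summed to between 14.7 and 107 CPM in LSK-derived leukaemias and between 1.19 and 1.31 CPM in GMP-derived leukaemias over 8 genes, in the LSK-derived libraries mostly Hbb-b2, a globin gene, with Slc4a1 at or near 0. T and NK markers summed to between 1.03 and 1.49 CPM in LSK-derived leukaemias and between 0.653 and 0.861 CPM in GMP-derived leukaemias over 12 genes, with Cd3e at 0 in all 6. B cell markers summed to between 15.2 and 22.3 CPM and between 4.55 and 13.9 CPM in the same order over 9 genes, mostly Cd79b in the LSK-derived libraries, with Pax5 and Ms4a1 at 0. Macrophage markers summed to between 15.6 and 50.1 CPM in LSK-derived leukaemias and between 33.1 and 166 CPM in GMP-derived leukaemias over 9 genes, mostly Emr1, and stromal markers to between 190 and 332 CPM and between 147 and 227 CPM over 12 genes, mostly Pecam1, with Col1a2, Dcn and Lum at 0. The myeloid markers of the leukaemia cells, among them Mpo, Ctsg and Hoxa9, summed to between 3643 and 5141 CPM in LSK-derived leukaemias and between 3808 and 6385 CPM in GMP-derived leukaemias over 10 genes. Of these 10, 1 rose and 4 fell, where 11.8% of all tested genes were higher and 13.9% lower, and their median log2 fold change was -0.55. Kit, the receptor for stem cell factor, rose by 0.75 on the log2 scale. Hoxa9, Cebpa, Ptprc and Ctsg fell, at log2 fold changes of -0.78, -0.83, -0.68 and -0.61. These genes, chosen after their values were seen, passed in each of the 6 fits that left out a library, except Ctsg, which passed in 2. The part of these cells and of the marker differences in the members' difference was not tested.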

How the data were processed

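The authors deposited 1 table of raw counts per gene symbol, not normalized, with 1 column per library. The submitters' processing notes name the build mm9 and the tools HTSeq 0.6.1, STAR 2.4 and DESeq2, without their roles. Annotation and strand setting: not given in the sources used here. TRIzol RNA and the TruSeq kit were used, per the labels' protocols. Total counts ran from 16640929 to 25628145 in LSK-derived and from 24411366 to 33885428 in GMP-derived libraries.

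The test was that of edgeR 4.0.16, run in R 4.3.3 (filterByExpr, TMM, robust glmQLFit, glmQLFTest, no covariate), with Benjamini-Hochberg adjustment over all 13406 tested genes and a threshold of 0.05. The approximate SE follows from the test, as the size of the log2 fold change over the root of its F statistic. Shares are described without a p-value. The steps were run on simulated counts in which 100 genes changed 1.2-fold and 100 changed 2-fold. With TMM, 1% of the former and 92% of the latter were recovered. The changed genes were drawn at random and were far fewer than those called in the data. The simulation therefore does not give the sensitivity of the test for the members. Alternatives used DESeq2 1.42.0, limma 3.58.1, other scalings and filters, length and GC offsets, and each library left out. Lengths, GC content and overlaps came from GENCODE M21, and start windows from RefSeq, both on GRCm38.

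Members, lists and the rule for named genes were chosen with earlier results of these data known. The rule took members called with a log2 fold change of at least 0.5 (there were none), the 5 most abundant members, a set of paralogues and members fixed by name, and up to 3 called genes per list. Genes that complete a small count were added after their values were seen. Some members and other genes are counted in the totals but not reported here by name.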

Additional observations from a re-analysis of the deposited data

How the results depend on the processing

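The median log2 fold change of the members stayed above 0 in every fit scaled on all genes. It was 0.18 with upper-quartile scaling, which moved the median of all genes from 0.012 to 0.038. The count of members called higher was 9 and moved to 19 with upper-quartile scaling (13.1% of all genes higher) and 3 with no filter on low counts (6.65%). It was 28 with the DESeq2 Wald test (14.4%), 19 with length and GC offsets (13.6%) and 0 against a minimum fold of 1.2 (6.18%). Scaling on the members alone gave 0, and the members without a pseudogene row held 4. The count stayed between 8 and 13 with DESeq2 size factors, library totals, TMM without the members, or a mean of at least 1 CPM. So it did with limma voom, with and without weights, and with the length offset. In these fits 11.7% to 14.6% of all genes were higher. Leaving out a library gave 0 to 6, where 5.62% to 11.1% of all genes were higher. No alternative called a member lower. Members called relative to the other members numbered 0 to 11 when a library was left out.

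The difference in the mitochondrial share ran from -0.00627 to 0.0167 percentage points without single libraries, with -0.00515 without LSK 44. The log2 fold change without single libraries ran from -0.07 to 0.01 for Rpl13a, -0.16 to 0.04 for Fau, -0.03 to 0.07 for Rpl7l1, -0.12 to 0.02 for Rpl22l1, -0.07 to 0.17 for Rplp1 and -0.04 to 0.21 for Rplp2, and with upper-quartile scaling Rpl13a had 0.01. The cause was not tested.

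No paired analysis was possible because the groups share no replicate number. With 3 libraries per group, a member that did not pass the test is not thereby shown to be equal in the groups. For the summed share of the members, counting error is far smaller than the spread between libraries. For evenly counted single members, such as Rpl15 and Rpl27 in the LSK-derived libraries, it is not.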

Other observations

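Rpl39l had 194 counts in GMP 11 and 0 in the other 5 libraries. Its neighbour in the RefSeq gene order, Atf7ip2, had 0 counts in LSK 44, LSK 45 and LSK 46, and 51, 42 and 53 counts in GMP 5, GMP 11 and GMP 19. Atf7ip2 was thus counted in each GMP-derived library and Rpl39l in 1 of them.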
